A study of Mus musculus with 6 samples.

Results

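The enzymes that build heme were followed in RNA-seq libraries of mouse megakaryocytic-erythroid progenitors (MEPs), cells that can give rise to platelet-forming megakaryocytes or to red cells. The table of read counts was searched by gene name for Alas1, Alas2, Alad, Uros, Urod, Cpox, Ppox and Fech. All 8 were found among 52459 genes, and all 8 passed the filter on low counts, which kept 13453 genes. The groups were 3 wild-type (WT) libraries and 3 Tmprss6-/- (KO) libraries. Tmprss6 is a liver protease that restrains the iron hormone hepcidin, and the series title names the knockout as a condition of iron deficiency. Each library held cells pooled from 3 mice of 1 genotype and sorted for cKit and CD150, with cells bearing lineage markers, Sca, Fc gamma receptors, CD105 or CD41 gated out. The labels give no strain, age, sex or form of the Tmprss6 allele. The labels do not say that the knockout was limited to any cell type.

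Heme is made in a relay between mitochondrion and cytosol. Aminolevulinate synthase joins glycine and succinyl-CoA in the mitochondrion, encoded by Alas1 in most tissues and by Alas2 in erythroid cells. Alad, Uros and Urod act in the cytosol, and Cpox, Ppox and Fech finish the ring in or at the mitochondrion, where Fech inserts iron. Alas2 transcription rises during erythroid maturation under GATA1. Its mRNA carries an iron-responsive element, a hairpin to which iron regulatory proteins bind when iron is scarce, which blocks translation. RNA counts measure the transcript and carry no information on that translational step.

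The sequences below are shown because Alas2 and Cpox are the members whose differences between genotypes passed a test in part of the libraries. The promoter runs come from RefSeq (GRCm38.p6) on the plus strand, end before the first base annotated as transcribed, and carry matches to the GATA motif in capitals, all of them on the opposite strand.
Alas2 promoter, chrX:150547167-150547374: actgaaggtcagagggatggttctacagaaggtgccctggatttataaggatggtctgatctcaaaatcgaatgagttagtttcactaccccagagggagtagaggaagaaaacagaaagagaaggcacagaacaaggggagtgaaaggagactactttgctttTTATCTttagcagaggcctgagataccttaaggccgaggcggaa
Cpox promoter, chr16:58669958-58670207: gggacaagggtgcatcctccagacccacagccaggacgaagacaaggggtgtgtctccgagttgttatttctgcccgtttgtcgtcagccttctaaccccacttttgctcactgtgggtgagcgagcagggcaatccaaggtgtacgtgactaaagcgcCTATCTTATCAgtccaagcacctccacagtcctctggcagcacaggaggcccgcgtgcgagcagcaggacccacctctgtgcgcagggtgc
The third run is the Alas2 iron-responsive element from the GENCODE M21 transcript, at the end of exon 1 of 11 in the 5′ untranslated region, with the bulged C and the loop in capitals.
Alas2 element, chrX:150547460-150547485: ggttCgtcctCAGTGCagggcaacag

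The GATA motif was searched on both strands as GATA preceded by A or T and followed by A or G, from 250 bases before to 50 after each start. It was present in 29.8% of 32851 RefSeq windows, and at 2 or more places in 7.8%. RefSeq windows matched 7 of the 8 members, with 10 starts, and did not include Fech. In the window of Cpox the GATA letters stood at 3 places, at -91, -86 and 4 from the start, of which -91 and -86 overlap by their end base in the run above. The Alas2 window had 1 match, at -86 from its RefSeq start, which lies inside the gene span given below. At Uros, whose gene is known to have separate housekeeping and erythroid starts, 1 of 2 windows had 2 matches and the other had none. Alas1, Alad, Urod and Ppox windows held no match. The NRF1 motif, searched in the same way, occurred in 4.6% of windows and was found at Alas1 and Uros. The KLF motif, searched as CCNCNCCC, was in 49.5% of windows and at all 7 members. These matches describe letters in a window and say nothing of binding.

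Total counts ran from 13402209 to 22986837 per library. The floor of 3 counts was 0.138 to 0.22 CPM, the count scaled to a common library size with TMM factors. Tmprss6 itself had 0 to 5 counts in every library, so its own counts check no label. Of the markers of MEPs and early erythroid cells, 10 of 10 passed the filter on low counts, from Cnrip1 at 2.06 to 5.32 CPM to Car1 at 3971 to 6451 CPM, which made up most of the sum in every library. Their summed level was 7553 to 8807 CPM in WT and 6081 to 8766 CPM in KO. Single markers of the list varied more than the sum. Kit, the gene of the sort marker cKit, held 392.4, 821.7 and 1640 CPM in WT replicates 1, 2 and 3. In KO replicates 1, 2 and 3 it held 316.0, 578.2 and 1246 CPM. Gata2 ran from 272.2 to 813.9 CPM in WT and from 243.7 to 604.7 CPM in KO. KO replicate 2 stood apart from the other 5 libraries. Its summed markers reached 2772 CPM for macrophages, 7231 CPM for eosinophils, basophils and mast cells, and 3324 CPM for neutrophils. The other libraries had at most 281.8, 715.5 and 369.5 CPM for those lists. Prg3, Epx, Ear1 and Mcpt8 of the eosinophil, basophil and mast cell list were at 0 in KO replicate 3, and no macrophage or neutrophil marker was at 0 in any library. Late erythroblast and red cell markers summed to 5658 CPM in KO replicate 2 and to 784.2 to 1100 CPM elsewhere. Differences between genotypes are therefore given with and without KO replicate 2, and "pair" means WT and KO libraries of the same replicate number.

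**Figure D1:**
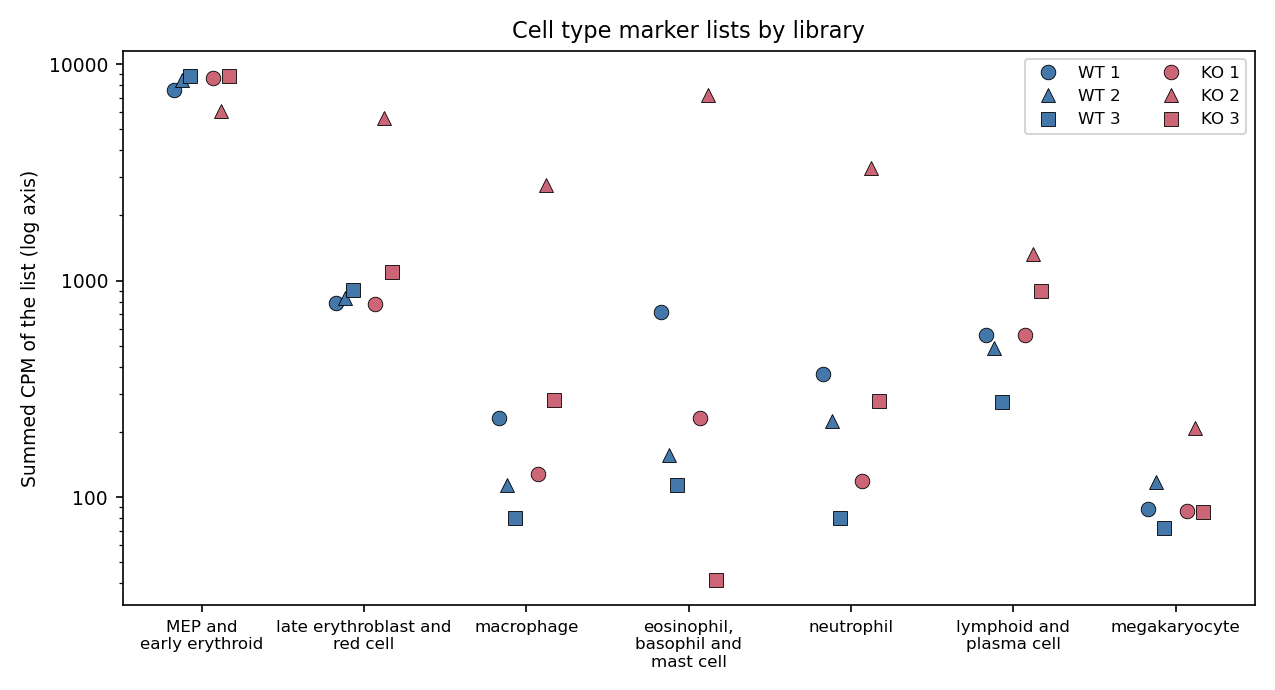
Summed CPM (log axis) of 7 cell type marker lists in each library, blue for WT and red for KO, with circles, triangles and squares for replicates 1, 2 and 3. KO replicate 2 is the highest library on every list but that of MEP and early erythroid cells, where it is the lowest at 6081 CPM.

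Across the genotypes, 7 of the 8 enzymes had a log2 fold change above 0, and none passed the test over all genes. Alas2 had the largest difference of the 8, followed by Cpox and Fech, while Alad, Uros and Urod, the cytosolic enzymes, lay within 0.15 log2 units of 0. edgeR's quasi-likelihood test called 0 of the 8, as it called 0 of 13453 genes (0%). At an unadjusted p under 0.05 there were 3 members, Alas2, Cpox and Fech, and 234 genes in all, 206 of them higher in KO (1.53%). DESeq2 called 0 members and 6 genes of 13320 with an adjusted p (0.045%), and gave no p for Alas2. The median log2 fold change of the 8 was 0.75, against -0.005 over all genes tested, of which 49.3% were above 0. Without KO replicate 2 the count of enzymes above 0 was 5 of 8 and their median 0.20. In bulk libraries, more cells of a type and more RNA per cell cannot be told apart.

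All KO libraries lay above all WT libraries for 3 of the 8 enzymes, Alas2, Cpox and Fech, an order that 2.27% of genes showed. With KO replicate 2 left out the count was 3 of 8, against 5.05% of genes. Leaving out a library cannot undo this order, so the count could only stay or rise. Levels were higher in KO in 3 of 3 pairs for 4 of the 8, the same 3 and Alad, against 11.5% of genes. These counts carry no test of their own.

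**Figure D2:**
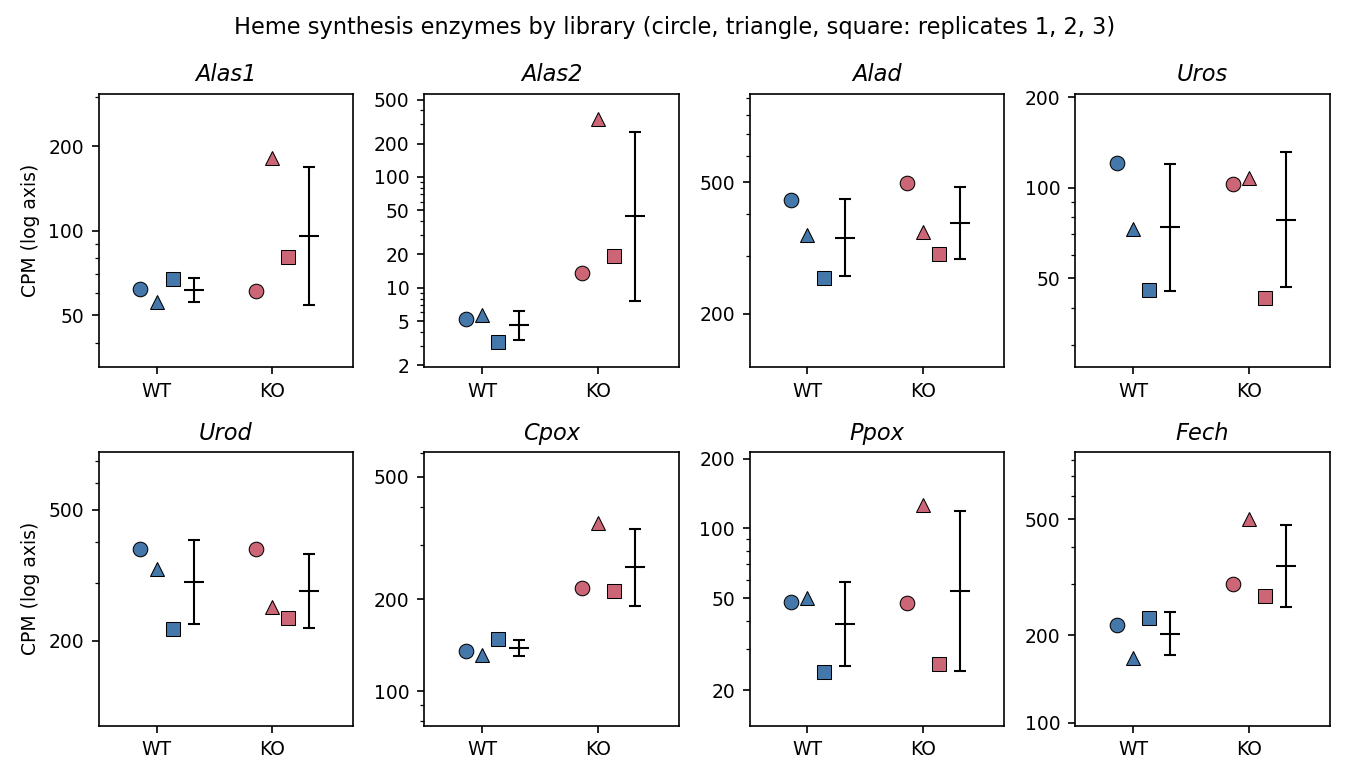
CPM (log axis) of each enzyme in each library, blue for WT and red for KO, with circles, triangles and squares for replicates 1, 2 and 3, and beside each group the mean ± SD of log2 CPM (n = 3). Only Alas2, Cpox and Fech have all KO points above all WT points, and KO replicate 2 is the highest library for 5 of the 8 enzymes.

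Alas2 (ENSMUSG00000025270, chromosome X, 150547375 to 150570638, plus strand), the erythroid enzyme of the rate-setting step, was low in WT. The WT libraries, in the order of their numbers here and below, held 5.26, 5.65 and 3.27 CPM (114, 82 and 46 counts). The KO libraries, in the same order, held 13.5, 333.2 and 19.4 CPM (221, 5358 and 264 counts). The groups did not overlap, and KO replicate 2 was 20.3 times the mean of the other KO libraries. Mean levels were 4.73 ± 1.27 CPM for WT and 122.0 ± 183 CPM for KO (SD, n = 3). On the log2 scale KO exceeded WT by 4.69 (SE 1.27; edgeR, adjusted p = 1.00). The difference was 1.80 (SE 0.39, adjusted p = 1.00) without KO replicate 2, so that this library moved the fold from 3.47 to 25.8. Within pairs the folds were 2.57, 59.0 and 5.93.

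Red cell markers moved along with Alas2. In pair 1, 7 of 11 late erythroblast and red cell markers were higher in KO, in pair 2 10 of 11 and in pair 3 9 of 11. The globin gene Hbb-bs had folds of 2.31, 28.7 and 4.57 in the pairs, and the anion exchanger gene Slc4a1 had 2.04, 142.5 and 3.70. Tspo2, an erythroid membrane protein gene, was lower in KO in all pairs, with folds of 0.728, 0.622 and 0.822. None of the 11 was at 0 in any library. The summed level of the list, of which Ermap and Tspo2 made up most in WT, had folds of 0.999, 6.84 and 1.22. The part of such transcripts in the Alas2 difference was not tested.

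The Alas2 gene lies inside the annotated span of Apex2, a DNA repair gene on the opposite strand, and the library kit does not mark strand. Apex2 stood at 11.3 to 18.0 CPM over the 6 libraries, with WT and KO overlapping. Alas2 is X-linked, and replicate 3 of both genotypes had 351 and 175 counts of Xist, a transcript of female cells. The other 4 libraries had 0 or 1 Xist count and at least 872 counts of the Y-linked Ddx3y. Each pair therefore joined mice of like sex, and Alas2 was higher in KO in the pairs with Y-linked counts and in the pair with Xist counts.

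Alas1 (ENSMUSG00000032786, chromosome 9, 106233455 to 106248654, minus strand), the enzyme for the same step in most tissues and subject to feedback by heme, varied little in 5 of the 6 libraries. WT libraries held 62.2, 55.7 and 67.3 CPM, and KO libraries 61.0, 181.1 and 80.5 CPM. The groups overlapped, since KO replicate 1 lay below WT replicates 1 and 3. The log2 difference was 0.80 (SE 0.42; edgeR, adjusted p = 1.00), and 0.20 (SE 0.29) without KO replicate 2.

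Which of the 2 synthases supplied the transcripts was compared as the Alas2 share of both, with CPM divided by transcript length. Alas2 made up 12.4%, 14.5% and 7.51% of the WT libraries' synthase transcripts and 27.0%, 75.4% and 28.7% of the KO libraries'. All KO libraries lay above all WT libraries. The mean was 11.5% ± 3.58 for WT and 43.7% ± 27.5 for KO (SD, n = 3; two-sided exact permutation p = 0.1, the smallest that 3 against 3 libraries allow). The difference was 32.3 percentage points, and 16.4 without KO replicate 2. Shares of raw counts had 95% Wilson intervals of 6.53% to 9.28%, 7.49% to 11.3% and 3.49% to 6.13% for the WT libraries. For the KO libraries they were 16.1% to 20.4%, 63.8% to 65.8% and 17.4% to 21.6%. The intervals cover counting error only.

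**Figure D3:**
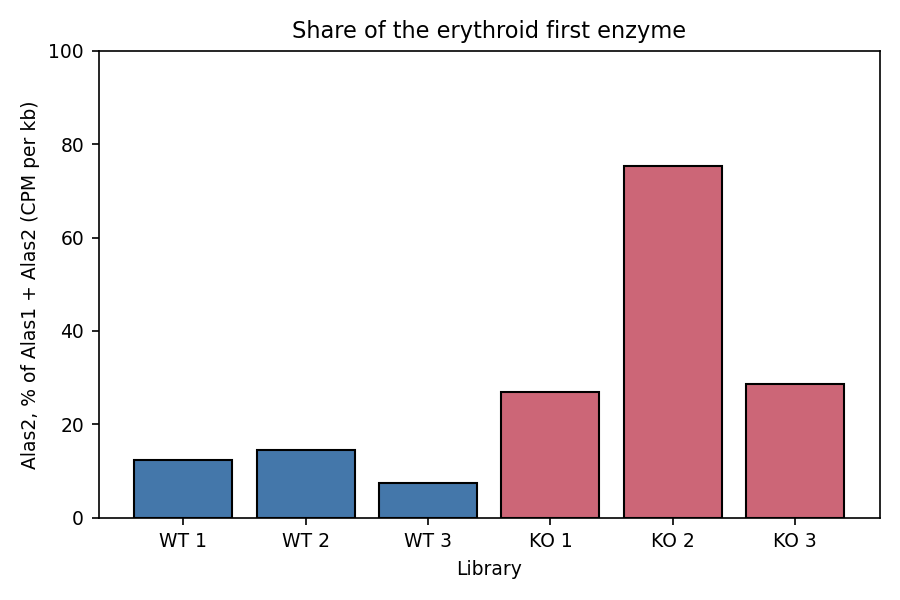
Bars give the Alas2 share (percent) of Alas1 plus Alas2 in each library, both as CPM per kilobase, blue for WT and red for KO, 1 bar per library. The WT bars reach at most 14.5% and the KO bars at least 27.0%, with KO replicate 2 at 75.4%.

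The cytosolic enzymes showed no difference between genotypes beyond the spread of the libraries. Alad (ENSMUSG00000028393, chromosome 4, 62509169 to 62519918), which condenses aminolevulinate to porphobilinogen, held 442.0, 345.5 and 257.4 CPM over the WT libraries. The KO libraries held 497.9, 354.7 and 304.1 CPM. The groups overlapped, with each KO library above the WT library of its own number, by folds of 1.13, 1.03 and 1.18. The log2 difference was 0.15 (SE 0.33; edgeR, adjusted p = 1.00), and 0.20 (SE 0.38) without KO replicate 2. With the replicate number as a block it was 0.15 (SE 0.14, adjusted p = 0.995).

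Urod (ENSMUSG00000028684, chromosome 4, 116989965 to 116994413), which decarboxylates uroporphyrinogen, was higher in KO in 2 of 3 pairs. Its levels were 380.5, 331.2 and 216.9 CPM over the WT libraries and 380.9, 252.5 and 235.1 CPM over the KO libraries. The groups overlapped, and replicate 3 was the lowest library in both. The log2 difference was -0.097 (SE 0.33; edgeR, adjusted p = 1.00), and -0.0088 without KO replicate 2.

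Uros (ENSMUSG00000030979, chromosome 7, 133686243 to 133710072), which closes the ring of uroporphyrinogen III, was the lowest of the cytosolic enzymes. WT libraries held 120.9, 73.0 and 45.7 CPM, and KO libraries 103.0, 107.7 and 43.1 CPM. Replicate 3 was again the lowest library of both genotypes, and the log2 difference was 0.083 (SE 0.47; edgeR, adjusted p = 1.00). Without KO replicate 2 it was -0.13. The annotated span of Uros overlaps that of Bccip on the opposite strand by 740 bases, so that some counts there could belong to either gene.

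Cpox (ENSMUSG00000022742, chromosome 16, 58670208 to 58680391), which oxidizes coproporphyrinogen, had the smallest WT spread of the 8 relative to its mean. WT libraries held 135.9, 131.5 and 147.9 CPM, and KO libraries 217.2, 354.5 and 212.6 CPM. Every KO library lay above every WT library, and KO replicates 1 and 3 were close to each other. Means were 138.4 ± 8.47 and 261.4 ± 80.7 CPM (SD, n = 3), a log2 difference of 0.92 (SE 0.30; edgeR, adjusted p = 1.00). Without KO replicate 2 it was 0.63 (SE 0.27), and the folds within pairs were 1.60, 2.70 and 1.44.

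Fech (ENSMUSG00000024588, chromosome 18, 64456550 to 64489066), the iron-inserting last enzyme, held 216.2, 166.3 and 229.3 CPM over the WT libraries. The KO libraries held 300.1, 499.4 and 272.8 CPM. The groups did not overlap, although WT replicate 3 and KO replicate 3 differed by a fold of only 1.19. The log2 difference was 0.81 (SE 0.33; edgeR, adjusted p = 1.00), and 0.49 (SE 0.30) without KO replicate 2.

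Ppox (ENSMUSG00000062729, chromosome 1, 171275990 to 171281186), which makes protoporphyrin from its precursor and sits between Cpox and Fech, did not share their order. WT libraries held 48.3, 49.9 and 23.9 CPM, and KO libraries 47.5, 125.6 and 26.1 CPM. Pairs 1 and 3 had folds of 0.984 and 1.09, and pair 2 had 2.52. The log2 difference of 0.71 (SE 0.58; edgeR, adjusted p = 1.00) became -0.15 (SE 0.45) when KO replicate 2 was left out. Ppox overlaps B4galt3 on the opposite strand by 907 bases, and B4galt3, too, peaked in KO replicate 2, with 34.6 CPM there and 15.04 to 27.3 CPM elsewhere.

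With only the pairs 1 and 3 and the replicate number as a block, a comparison chosen with results of these data known, Alas2 and Cpox passed the genome-wide edgeR threshold. That comparison had calls for 117 of 13572 genes (0.862%), of which 35 were higher in KO (0.258%). Alas2 rose 3.82-fold (log2 fold change 1.93, SE 0.33, adjusted p = 0.0095) and Cpox 1.51-fold (log2 fold change 0.60, SE 0.11, adjusted p = 0.017). Fech had a log2 fold change of 0.36 (SE 0.11, adjusted p = 0.14) and did not pass. The other 5 enzymes lay between -0.16 and 0.20, with Alad the highest of them (SE 0.10, adjusted p = 0.41). Over these pairs macrophage markers summed to a fold of 0.555 in pair 1 and 3.50 in pair 3, and eosinophil, basophil and mast cell markers to 0.326 and 0.364. Their part in the calls was not tested. The pairs were themselves taken from the data, and the fit on them left few libraries to measure the spread of each gene. With KO replicate 2 left out and no block, edgeR called 0 of 13703 genes. With the block over all 6 libraries 0 genes were called (476 had an unadjusted p under 0.05), and the fit gave log2 fold changes of 3.20 for Alas2, 0.88 for Cpox and 0.77 for Fech (adjusted p = 0.995 for each).

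**Figure D4:**
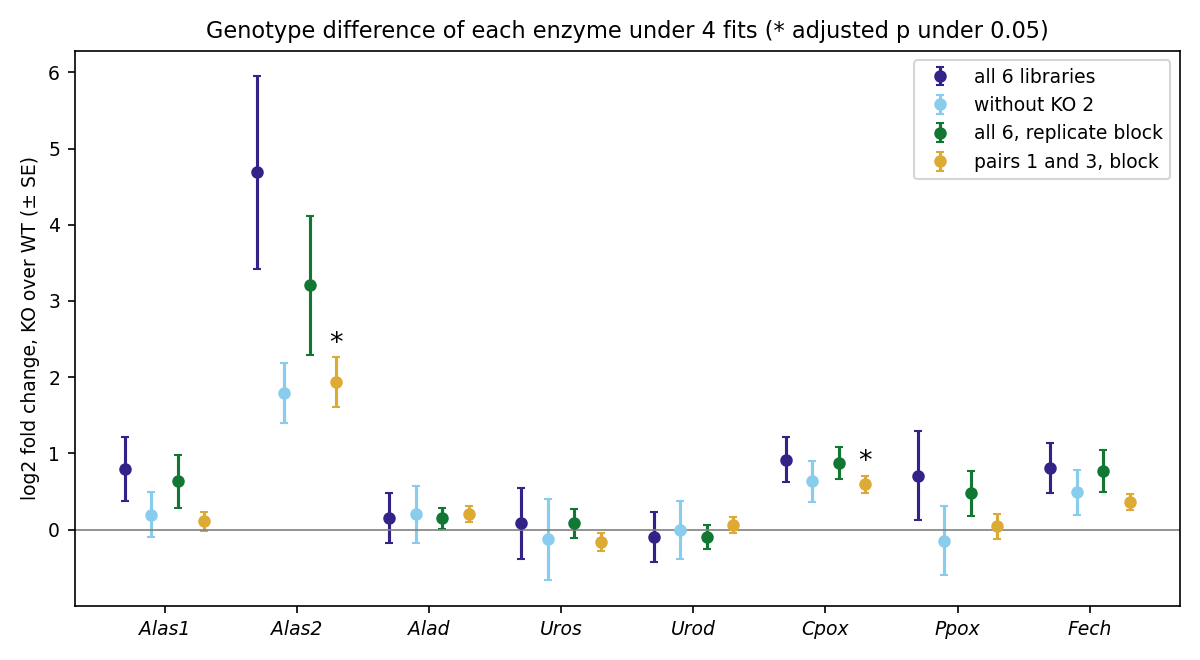
Log2 fold change of each enzyme, KO over WT, with SE bars, under 4 edgeR fits. Stars mark an adjusted p under 0.05, reached by Alas2 and Cpox in the pairs 1 and 3 with a block, and the cytosolic enzymes Alad, Uros and Urod stay near 0 in all 4 fits.

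Levels were compared between enzymes as CPM per kilobase of the longest coding transcript. In WT the order from high to low was Alad (279.3 ± 74.0), Urod (207.9 ± 56.4), Uros (45.3 ± 21.6), Cpox (44.7 ± 2.74), Fech (31.0 ± 5.06), Ppox (22.4 ± 7.99), Alas1 (18.2 ± 1.72) and Alas2 (2.32 ± 0.63 CPM per kilobase, SD, n = 3). Neighbours overlapped in their range except at 3 places. Every WT value of Urod, at least 145.7, was above every one of Uros, at most 68.6. By these lengths Cpox, at least 42.5, lay above Fech, at most 34.9. Alas2, at most 2.77, lay below Alas1, at least 16.4. Alad was first and Urod the next in all 6 libraries, KO replicate 2 included. Alas2 was the lowest of the 8 in 5 libraries and the third highest in KO replicate 2, where it reached 163.6 CPM per kilobase. In every library each of the mitochondrial enzymes was below Urod. The lengths of Cpox and Fech come from GENCODE M21 spans that differ from the deposited ones. Fech lies on the minus strand, and its M21 span runs on to 64452914, where the deposited span ends at 64456550. Its length of 6571 bases may therefore include sequence that was not counted. The places of Fech and Cpox in the order depend on these lengths, and other lengths were not tested.

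**Figure D5:**
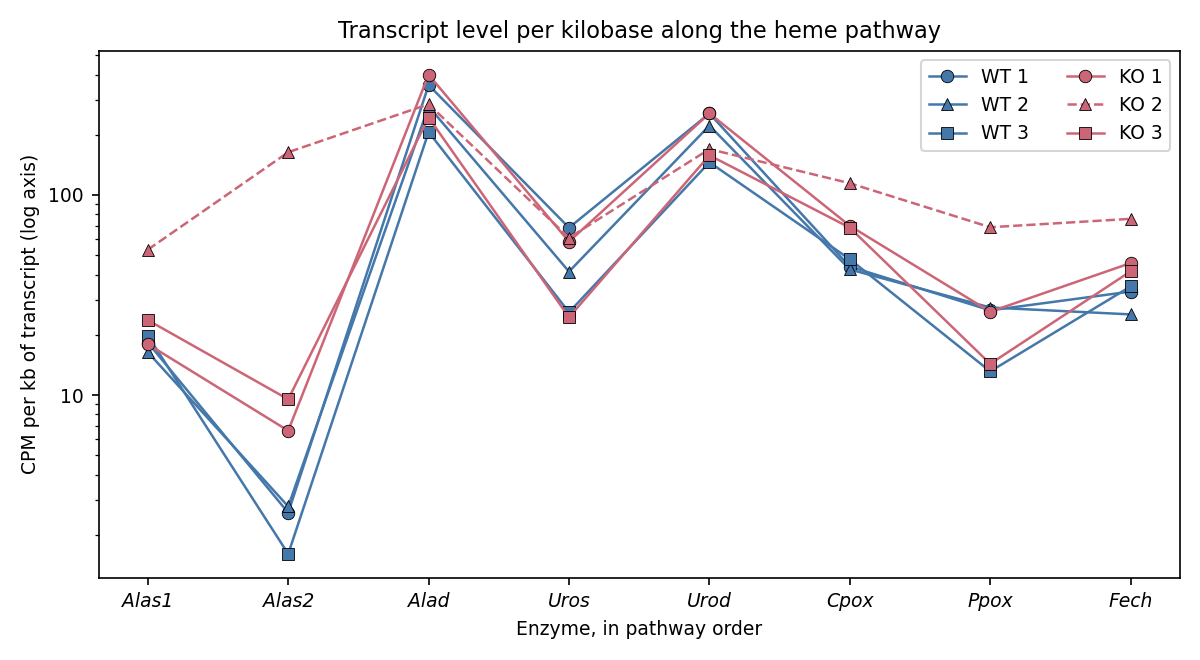
CPM per kilobase of transcript (log axis) for the 8 enzymes in pathway order, 1 line per library, blue for WT and red for KO, with KO replicate 2 dashed. Alad and Urod are the peaks in every library, and Alas2 spans 1.61 to 163.6 while Alad spans 206.4 to 399.3 CPM per kilobase.

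Some members had near-equal profiles over the libraries. Likeness was taken as the root mean square difference of log2 CPM after centring each gene on its own mean of the 6 libraries. Cpox and Fech differed by 0.12 log2 units, the closest pair, and Alad and Urod by 0.14. Alas1 was 0.26 from Fech and 0.28 from Cpox, while Alas2 was at least 1.67 from each of the other 7. Over 11419 genes compared with each member, those nearest to Alas2 were Hbb-bs (0.32), the stress pseudokinase gene Trib3 (0.34) and Hba-a1 (0.39). The globin genes have near-identical copies whose reads could be split or shared. Nearest to Cpox were Tspan33, a tetraspanin gene (0.11), the mitotic gene Cdca8 (0.12) and Fech, and nearest to Fech were Tspan33 (0.063), Rab13 (0.098) and Eme1 (0.10). For Alas1 they were Cenpe (0.057), a mitotic kinesin gene, Cdr2 (0.078) and Adam15 (0.089). Alad was nearest to Dus2 (0.041), Tmem33 (0.047) and Bsg (0.060), and Urod to Mrpl43 (0.032), Coq9 (0.040) and Actr10 (0.043). Uros was nearest to Snx31 (0.12), Tifa (0.13) and Fam26f (0.13), and Ppox to Rasgef1c (0.069), P2ry14 (0.15) and Tm6sf1 (0.16). These lists describe 6 libraries, 1 of which stands apart.

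Of 36 partner genes of the pathway, 34 passed the filter, and 0 passed edgeR's test in the 6 libraries, with 2 at an unadjusted p under 0.05. Their log2 fold change was above 0 for 21 of 34, with a median of 0.082 against -0.005 over all genes. Leaving out KO replicate 2 gave 24 of 34 above 0 and a median of 0.167, against a median of -0.003 for every gene tested. DESeq2 called 1 of them, Tfrc, which was also the 1 called with the pairs 1 and 3. Flvcr2 and Abcb6, a heme and a porphyrin transporter gene, were the pair under the filter.

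Among the genes of substrate supply, 4 of 6 were above 0, and 6 of 6 without KO replicate 2. Slc6a9, a glycine carrier of the plasma membrane, held 0.922, 1.45 and 1.28 CPM over the WT libraries and 1.59, 23.8 and 2.28 CPM over the KO libraries (log2 difference 2.92, SE 1.05; edgeR, adjusted p = 1.00). The groups did not overlap, but KO replicate 2 held most of the difference, which was 0.67 (SE 0.55) without it. Shmt2, which makes glycine in the mitochondrion, had 237.9 ± 44.5 CPM for WT and 304.2 ± 52.0 for KO (SD, n = 3, as for the means below) and was higher in 3 of 3 pairs. Slc25a38, the carrier that brings glycine to aminolevulinate synthase, had 85.1 ± 15.3 and 95.8 ± 17.04 CPM, also higher in 3 of 3 pairs. Sucla2, a subunit of succinyl-CoA synthetase, had 146.6 ± 21.7 and 173.5 ± 44.2 CPM. Without KO replicate 2 the log2 differences were 0.43 for Shmt2, 0.13 for Slc25a38 and 0.43 for Sucla2. None of these passed.

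Mitochondrial iron, porphyrin and cluster supply had 5 of 9 tested genes above 0, and 5 of 9 without KO replicate 2. Slc25a37, the mitoferrin gene of erythroid cells, was at 8.44, 11.9 and 12.1 CPM over the WT libraries and 6.05, 82.5 and 14.2 CPM over the KO libraries. Of the KO libraries, replicate 2 alone lay well above the WT values, and the log2 difference of 1.66 became -0.099 without it. Abcb10, a partner of mitoferrin, was at 91.9, 95.6 and 112.8 CPM in WT and 102.4, 190.6 and 125.3 CPM in KO, higher in 3 of 3 pairs (log2 difference 0.48, SE 0.30; edgeR, adjusted p = 1.00). That difference was 0.18 (SE 0.29) without KO replicate 2. The scaffold gene Iscu had a log2 fold change of 0.22, and 0.29 without that library.

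Heme export, import, breakdown and sensing had 6 of 10 tested genes above 0, and 7 of 10 without KO replicate 2. Hmox1, which breaks heme down and is high in macrophages, was at 34.9, 17.4 and 3.56 CPM over the WT libraries and 7.40, 210.8 and 23.1 CPM over the KO libraries. The macrophage list was highest in the same KO library, and the log2 difference of 2.11 became -0.29 without it. Eif2ak1, the heme-sensing kinase gene, Flvcr1, a heme exporter gene, and Hmox2 had log2 fold changes of 0.34, 0.23 and 0.13, and of 0.16, 0.41 and 0.20 without that library.

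Transcription and iron control had 6 of 9 genes above 0, and 6 of 9 without KO replicate 2. Gata1 was at 443.1, 546.7 and 610.4 CPM in WT and 571.9, 380.6 and 594.1 CPM in KO, with overlapping groups (log2 fold change -0.049, and 0.13 without KO replicate 2). Klf1 was at 567.1 ± 85.8 and 598.7 ± 117 CPM, with a log2 difference of 0.23 without that library. Both drive erythroid genes and were at least 380.6 CPM in every library. Tfrc, the transferrin receptor gene, was at 100.5, 97.0 and 65.5 CPM in WT and 343.3, 475.7 and 203.9 CPM in KO, with no overlap. Its log2 difference was 1.96 (SE 0.38; edgeR, adjusted p = 1.00), and 1.64 (SE 0.36; edgeR, adjusted p = 1.00) without KO replicate 2. Nfe2, a globin regulator, had all KO libraries below all WT libraries, at 792.7 to 801.8 CPM in WT and 492.9 to 790.3 CPM in KO, an order shown by 1.75% of genes (log2 difference -0.30, SE 0.29; edgeR, adjusted p = 1.00). Without KO replicate 2 it was -0.14. Zfpm1 and Ldb1, cofactors of GATA1, had log2 fold changes of 0.36 and -0.15, and of 0.42 and -0.23 without that library.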

How the data were processed

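The deposited values were whole-number read counts per Ensembl gene, 1 column per library, with no scaling by the authors. Per the submitters' processing notes, FastQC 0.11.5, STAR 2.5.3a and edgeR were used, with builds GRCm38.p3 and GRCh38.p3; no source used here names the counter, its strand setting, its handling of multiply mapped reads or the annotation release. Per the labels' protocols, SMART-Seq v4 and Nextera XT made the libraries. Gene spans are those of the deposited table; 6 of the 8 equal GENCODE M21 (GRCm38), whose longest coding transcripts gave lengths, and those of Cpox and Fech differ.

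Genes were filtered with filterByExpr (minimum count 10, minimum total 15), scaled by TMM and compared with the quasi-likelihood test of edgeR 4.0.16 in R 4.3.3, two-sided, with Benjamini-Hochberg adjustment over all genes and a threshold of 0.05. Log2 CPM add a prior count of 2. Each SE given with an edgeR fit was derived, as the absolute log2 fold change divided by the square root of the test's F statistic. DESeq2 1.42.0, other scalings, no filter, the newer quasi-likelihood method, a replicate block and leaving out each library were alternatives. Some fits were also run on simulated counts with no pair effect and no library apart, which does not show how they behave on these data. Nothing says which libraries share a litter or day, and p-values measure the spread between pools. Libraries of the same number were taken as pairs, from the data: their deviations from the group means correlated across genes at 0.53, 0.16 and 0.63 for numbers 1, 2 and 3, each over 0.1. The members, partner genes, markers and motifs were chosen with earlier results of these data known. Named genes were all 8 members, up to 4 partner genes of smallest p per group, and the 3 genes most like each member, gene models and pseudogenes left out; Gata1 and Klf1 were named besides. Ahsp, a marker, was not analysed here.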

Additional observations from a re-analysis of the deposited data

How the results depend on the processing

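Over 13 alternatives the log2 fold changes of Alas2 (1.80 to 5.21), Cpox (0.60 to 1.04), Fech (0.36 to 0.96) and Alas1 (0.11 to 1.07) kept their direction; Ppox, Alad, Uros and Urod each turned under at least 1. With the replicate block on pairs 1 and 3, 117 genes, 2 of the 8 enzymes and 1 partner gene were called, and Uros and Urod turned to -0.16 and 0.056; fewer libraries and a block were changed together there, and the cause was not tested. DESeq2 called 6 genes, 1 of them a partner gene. The replicate block over all 6 libraries called 0 genes and changed no other call. Leaving out each library called 0 genes and 0 enzymes, moved the count of enzymes above 0 between 5 and 8, and gave ranges of -0.087 to 0.35 for Alad, -0.20 to 0.51 for Uros, -0.35 to 0.075 for Urod and -0.15 to 1.08 for Ppox. The Alas2 share differed by 32.3 percentage points (KO minus WT), by 16.4 to 40.6 when each library was left out, by 26.9 in counts not divided by length, and by the same 32.3 with the replicate block (exact sign-flip p = 0.25, the smallest for 3 pairs). At 3 libraries a group, with KO replicate 2 apart, a difference short of the threshold does not show equal levels.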
